A study of Rattus norvegicus with 34 samples.

Results

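Of the miRNA assays on TaqMan card A, those at the positions written here as A-130 and A-368 were followed over 17 libraries of Sprague-Dawley rats aged 4 weeks. They are 2 of the 384 positions of the card, each the well of a single assay, and they were chosen by measured values of these same libraries: position 130’s lead in whole small intestine and position 368’s lead in microdissected intestinal villus. Their levels are therefore a description, with no test. The values deposited for the card do not pair positions with miRNAs, so neither position is named and no miRNA sequence is shown.

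The 17 libraries comprised 12 whole tissues (small intestine, liver, bile duct, pancreas, lung, kidney, spleen, heart, skeletal muscle, prostate, and the salivary and lacrimal glands) and 5 samples isolated by laser microdissection (intestinal villus, glomerulus, proximal tubule, and the bronchial and mammary glands). RNA of the microdissected samples was preamplified for 12 cycles and that of the whole tissues was not. No treatment is stated for the animals, both sexes were used, and the sources do not state whether animals were pooled. Each tissue or compartment had 1 library on card A, so no difference below can be set against replicate libraries.

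MicroRNAs are short RNAs that repress messenger RNAs, and many are restricted to a tissue or a cell type. The wall of the small intestine holds a mucosa folded into villi, which are covered by absorptive epithelium over a core of connective tissue and vessels, and beneath it crypts, submucosa, and layers of smooth muscle. Whole small intestine samples all of these, while a dissected villus leaves out most of the wall. The proximal tubule is likewise an absorptive epithelium with a brush border, and the glomerulus is the filtering tuft of the nephron. miR-192 and miR-194 are known from intestinal and renal epithelium and miR-145 from smooth muscle, but no position was matched to any of them here.

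Expression was measured as Cp, the PCR cycle at which fluorescence crosses its threshold, so that a lower Cp means more template and 1 cycle is a 2-fold step only if each cycle doubles the template. A Cp of at most 35 was called detected, and wells without amplification were listed at 50. Each column was scaled by subtracting its median over the 78 positions detected in all 17 libraries, called the shared positions, with undetected wells set to 35. The 4 repeated positions (11, 12, 35, and 36), which gave nearly the same Cp within a library, were left out, so that 380 positions were compared. The number of detected positions ran from 125 in pancreas to 249 in lung. The median used as the scale was latest in pancreas (Cp 31.2) and earliest in bronchial gland (Cp 21.0). It was 26.6 in small intestine and 21.8 in intestinal villus. The SD of the 4 repeated positions was between 0.0610 and 0.841 cycles in the 17 libraries, the only measure of spread between wells, and it holds for an abundant RNA.

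A-130 was highly expressed in both intestinal libraries and in neither the kidney nor its compartments. Its Cp was 19.9 in small intestine and 15.8 in intestinal villus. In the 15 other libraries its Cp was never below 30.7. On the scaled measure it stood at -6.62 cycles in small intestine and -5.98 cycles in intestinal villus, that is, far above the median of the 78 shared positions. The nearest other library was skeletal muscle, at 2.89 cycles. The 2 intestinal libraries thus stood apart from the other 15, with a gap of 8.87 cycles between villus and skeletal muscle. In whole tissue, less of an RNA and fewer of the cells that hold it cannot be told apart.

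A-130 was detected in 8 of the 12 whole tissues and 3 of the 5 microdissected samples. Among whole tissues the detected levels after small intestine and skeletal muscle were, as scaled Cp, 4.27 cycles in lacrimal gland, 5.26 in kidney, 5.59 in prostate, 7.18 in bile duct, 7.58 in salivary gland, and 11.0 in lung. All of these lay below the median of the 78 shared positions. The wells of pancreas, liver, heart, and mammary gland did not amplify. Spleen amplified late, at Cp 37.0. For undetected libraries the scaled value is only a limit, and in pancreas, whose card was late, that limit was no further than 3.85 cycles, so its place in the order is not settled. Lung (Cp 34.99), bronchial gland (Cp 34.8), and glomerulus (Cp 35.01) lay at the limit itself, the first 2 just inside and glomerulus just outside. Among the 11 libraries with detection, 4 of the 10 gaps between neighbours in the order were smaller than 0.841 cycles, the largest SD of the repeated positions. Small intestine and villus were one such pair, 0.64 cycles apart.

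The lead of small intestine at A-130 over the nearest of the 11 other whole tissues, skeletal muscle, was 9.51 cycles, or 729-fold if each cycle doubled the template. At 1 of the 380 positions, A-130 itself, small intestine led by at least 3 cycles (0.263%), and since the rule used this lead the share is given only as a description. The next positions were A-120, with a lead of 2.06 cycles over kidney, and A-107, with 1.60 cycles over liver. A-130 was also the position with the lowest Cp of all 380 in small intestine. In intestinal villus it had the second lowest. Cp values of different assays are not strictly an order of copy number.

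The high level of A-130 in small intestine was thus also present in the microdissected villus. Compared with the 4 other microdissected samples, which shared its preamplification, villus led by 14.0 cycles at A-130, with proximal tubule nearest at a scaled Cp of 8.07. A lead of at least 3 cycles was found at 9 of 380 positions in this comparison (2.37%), and A-130 had the second largest. Over all 15 libraries outside the intestine villus led by at least 3 cycles at 3 positions (0.789%), A-368, A-214, and A-130. Which of the intestinal libraries was higher at A-130 was not settled by the data. The scaled Cp was 0.64 cycles lower in small intestine, while villus was lower by 2.25 cycles on the scale of the 4 repeated positions, by 0.75 cycles when whole tissues and microdissected samples were scaled apart, and by 4.09 cycles without scaling.

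**Figure D1:**
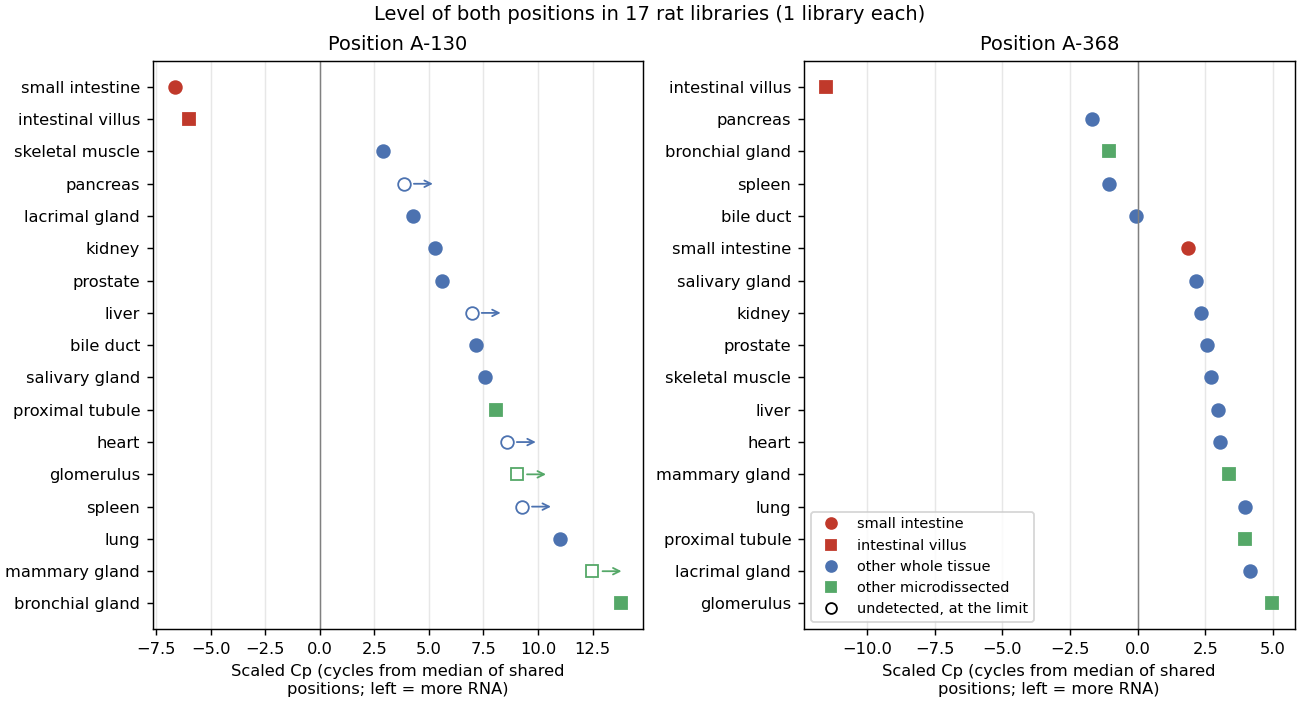
Scaled Cp in cycles (x axis, lower values to the left mean more RNA) of A-130 (left) and A-368 (right) in the 17 libraries, ordered by level; each point is 1 library, and open points with arrows are undetected wells drawn at the detection limit. Small intestine (-6.62) and intestinal villus (-5.98) stand apart at A-130, whereas at A-368 only villus (-11.5) stands apart and small intestine (1.86) lies among the other tissues.

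A-368 had by far its lowest Cp in intestinal villus and lay among the other tissues in whole small intestine. Its Cp in villus was 10.3, the lowest of the 6460 values compared on card A and the only one under 15. It is a single well of a single library, and its amplification plot was not examined here. The next lowest of the values compared, which leave out the 4 repeated positions, was that of A-130 in the same library, at 15.8. In the villus library A-368 came 5.52 cycles before the mean of the 4 repeated positions (Cp 15.8). Such a lead over that mean, by over 1 cycle, was found for some compared position in 4 libraries, villus included. In pancreas A-312 had a Cp of 17 against a mean of 22.2. In the 15 libraries outside the intestine the Cp of A-368 ran from 20.0 in bronchial gland to 31.0 in liver. It was detected in all 17 libraries.

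On the scaled measure A-368 stood at -11.5 cycles in villus. It was followed by pancreas at -1.67, bronchial gland at -1.05, spleen at -1.05, and bile duct at -0.07 cycles. Small intestine came sixth at 1.86 cycles, and salivary gland at 2.17, kidney at 2.35, prostate at 2.57, skeletal muscle at 2.71, liver at 2.98, and heart at 3.04 cycles came just after it. On this scale the lowest levels were those of mammary gland at 3.39, lung at 3.98, proximal tubule at 3.99, lacrimal gland at 4.16, and glomerulus at 4.98 cycles. Outside the intestine the levels were thus within 6.65 cycles of each other over all 15 libraries. Of the 16 gaps between neighbours in the order, 13 were smaller than 0.841 cycles. Those that were larger separated villus from pancreas, spleen from bile duct, and bile duct from small intestine. The order after villus depended on the scale. Counted from the mean of the 4 repeated positions, mammary gland came 8.02 cycles later, ahead of spleen (8.30) and small intestine (10.75). Small intestine was then at place 8.

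The lead of villus at A-368 over the nearest of the 16 other libraries, pancreas, was 9.84 cycles. Pancreas had the latest scale of all libraries, and its Cp of 29.5 was later than that of small intestine (28.4). Over the 4 other microdissected samples, with the same preamplification, the lead was 10.5 cycles, or 1414-fold if each cycle doubled the template, with bronchial gland nearest. Over all 16 libraries villus led by at least 3 cycles at 2 of 380 positions (0.526%), again a share that the rule used. The other was A-214, with a lead of at least 9.39 cycles over undetected pancreas, and A-139 followed outside that lead with 2.42 cycles over salivary gland.

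The lead of A-368 did not hold in whole small intestine. Small intestine was not the highest whole tissue at this position: pancreas, spleen, and bile duct were higher, by 3.54, 2.91, and 1.94 cycles. Ordered by lead over the other whole tissues, A-368 was 161st among the 235 positions detected in small intestine. Between villus and small intestine it differed by 13.4 cycles on the scaled measure and by 18.1 cycles in Cp as deposited. This was the largest difference in favour of villus among the 196 positions detected in both libraries, and the second, at A-139, was 7.66 cycles. The median of these differences was -0.29 cycles, with an SD of 2.43 cycles over positions. Since the rule used the lead of villus at A-368, the rank of A-368 among them is only a description. Counting positions detected in the higher library, villus was higher by at least 3 cycles at 10 of 380 (2.63%), A-368 among them, and small intestine was higher by that much at 60 (15.8%). A-130 was in neither count. Dissection, preamplification, and extraction with the mirVana PARIS kit went together in villus. Whole small intestine had none of them and was extracted with TRIzol, so they cannot be told apart in this pair. The 13.4 cycles also rest on a single villus well, and no cause of them was tested. The other 4 preamplified samples had A-368 at scaled Cp values between -1.05 and 4.98, and of these glomerulus alone lay outside the range of the whole tissues (-1.67 to 4.16).

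**Figure D2:**
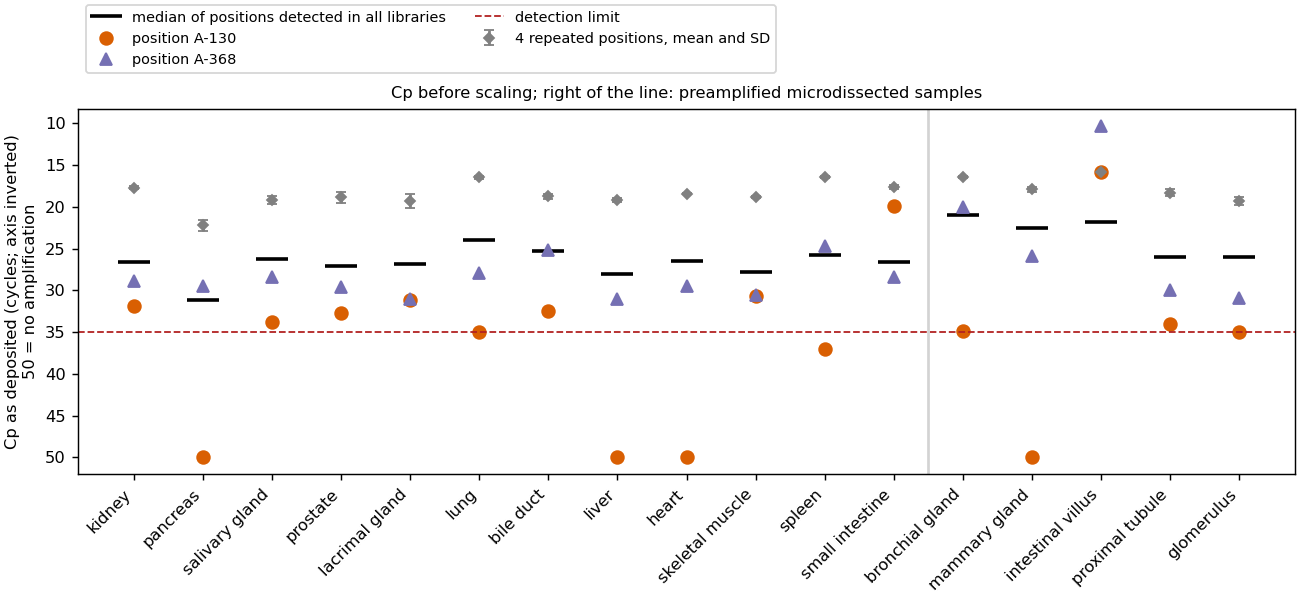
Cp as deposited (y axis in cycles, inverted, 50 meaning no amplification) of A-130 and A-368 in the 17 libraries (x axis), beside the median of the 78 shared positions and the mean and SD of the 4 repeated positions; microdissected samples are right of the vertical line. In intestinal villus A-368 (10.3) lies above the repeated positions (15.8), while in small intestine A-130 (19.9) lies between the repeated positions (17.7) and the median of the shared positions (26.6).

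**Figure D3:**
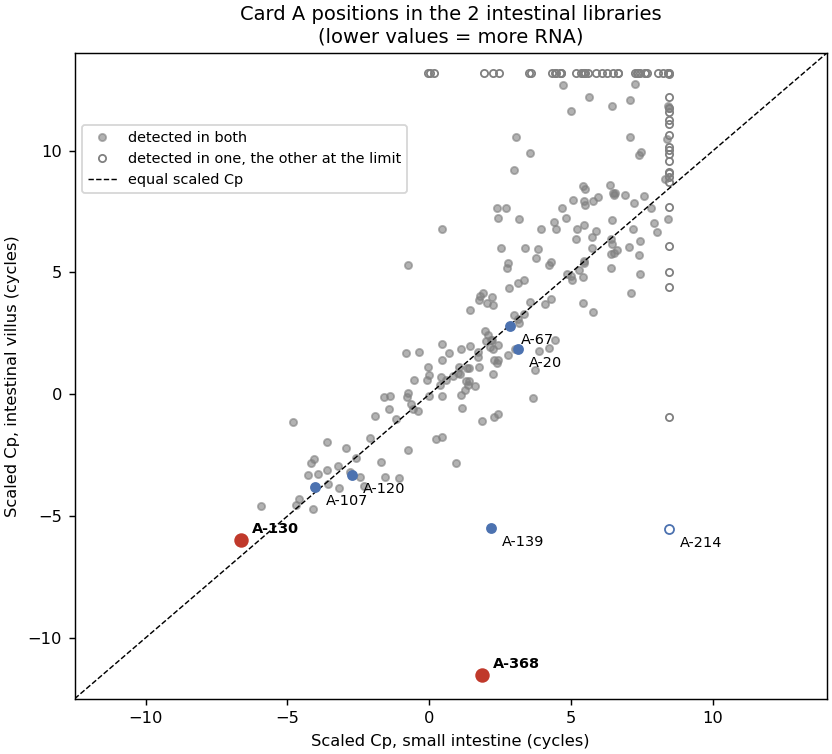
Scaled Cp of the card A positions in small intestine (x axis, cycles) and in intestinal villus (y axis, cycles); each point is a position, open points were detected in one of the libraries and lie at the limit of the other, and positions undetected in both are not drawn. A-130 lies near the line of equal values at the lower left, and A-368 lies 13.4 cycles below it.

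In the kidney both positions were at a modest or low level. A-130 had a Cp of 31.8 in whole kidney, 34.0 in proximal tubule, and 35.01 in glomerulus. On the scaled measure kidney stood at 5.26 and proximal tubule at 8.07 cycles, and glomerulus lay beyond its limit of 9.03 cycles. The level was thus lower in the dissected compartments than in whole kidney on this scale. The difference was 2.80 cycles in proximal tubule and at least 3.77 cycles in glomerulus. Of the 179 positions detected in both kidney and proximal tubule, 10 had a difference at least as large, A-130 included. Counted from the mean of the 4 repeated positions, A-130 came 14.1 cycles later in kidney and 15.7 in proximal tubule. Whole kidney was not preamplified and both compartments were, and the RNA was extracted by different methods. At both positions dissection, preamplification, and extraction therefore cannot be told apart. Proximal tubule and glomerulus differed by at least 0.96 cycles.

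A-368 had a Cp of 28.9 in whole kidney, 29.97 in proximal tubule, and 30.9 in glomerulus. The scaled values were 2.35, 3.99, and 4.98 cycles, with the same order as A-130 and with detection in all of them. Whole kidney was higher than proximal tubule by 1.64 cycles and higher than glomerulus by 2.63 cycles. Over the 179 positions detected in both kidney and proximal tubule this difference had a median of 0.57 cycles and an SD of 1.55 cycles, so that of A-368 lay inside the spread of positions. Proximal tubule and glomerulus were 0.99 cycles apart. Counted from the mean of the 4 repeated positions, A-368 came 11.20 cycles later in kidney, 11.67 in proximal tubule, and 11.66 in glomerulus. On that scale the compartments were nearly level and both stood closer to kidney, so these differences depended on the scale. In the libraries of proximal tubule and glomerulus, 89.4% and 87.9% of the amplified wells lay within 0.05 cycles of a whole number. The other libraries had at most 31.1%, so a difference of about 1 cycle is a single step.

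Compared with whole kidney, small intestine was higher by 11.9 cycles at A-130. This was the largest of the differences at the 212 positions detected in both tissues, which had a median of -0.39 and an SD of 2.01 cycles. The rule used the lead of small intestine at A-130 over other tissues, kidney among them, so this rank is only a description. At A-368 the difference was 0.49 cycles, and 73 of these positions had one at least as large. Small intestine was higher than kidney by at least 3 cycles at 24 of 380 positions (6.32%), A-130 among them and A-368 not.

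Compared with proximal tubule, villus was higher by 14.0 cycles at A-130 and by 15.5 cycles at A-368. These were the 2 largest of the differences at the 171 positions detected in both. The rule used the lead of villus at A-368, so the rank of A-368 and its place in the count below are only a description. Compared with glomerulus, villus was higher by at least 15.0 cycles at A-130 and by 16.5 cycles at A-368. Villus was higher than both by at least 3 cycles at 21 of 380 positions (5.53%), and both A-130 and A-368 were among them. Villus was thus well above both renal compartments at both positions, although the sizes cannot be set against each other in glomerulus, where A-130 was undetected.

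Outside the villus the scaled values of the 2 positions showed little correlation. Over the 17 libraries the Pearson correlation of their scaled Cp was 0.49 (Spearman 0.29), and over the 16 libraries without intestinal villus it was 0.01 (Spearman 0.16). These values are descriptions over libraries that share the scale and, in 5 of them, preamplification. In 6 of the libraries A-130 was undetected and its value is only the limit of the card. Whether the 2 positions vary together there is therefore not settled.

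Other positions were then set beside them. Both intestinal libraries had a lower scaled Cp than each of the 15 others at 5 of 380 positions (1.32%): A-130, A-120, A-107, A-67, and A-20. The gap to the nearest other library was 8.87 cycles at A-130, 2.06 at A-120, and 1.39 at A-107, but only 0.02 at A-67 and at A-20. At A-107 small intestine stood at -4.04 and villus at -3.82 cycles, and it was also high in liver (-2.44), proximal tubule (-2.01), and kidney (-1.47), with glomerulus at 3.01 cycles. A-120 stood at -2.72 and -3.30 cycles in the intestinal libraries and at -0.66 in kidney. At both positions kidney stood above the median of the 78 shared positions, unlike at A-130.

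By correlation over the 17 libraries, the positions most like A-130 were A-87 (0.75), A-214 (0.75), A-311 (0.74), A-107 (0.72), and A-120 (0.67). Since A-130 was chosen by its intestinal levels, the same values over the 15 libraries outside the intestine were 0.76, 0.90, 0.73, 0.43, and 0.19. A-87, A-214, and A-311 were detected in only 5, 3, and 6 libraries, and their undetected wells follow the limit of each card as those of A-130 do. The positions most like A-368 were A-214 (0.73), A-367 (0.61), A-20 (0.58), A-139 (0.52), and A-130 (0.49). Without villus these were 0.06 for A-214, 0.59 for A-367, 0.26 for A-20, 0.00 for A-139, and 0.01 for A-130, so that of the 5 all but A-367 rested on that library. A-214 had a Cp of 16.3 in villus and was undetected in small intestine, proximal tubule, and glomerulus. Outside villus it was detected in bronchial gland and skeletal muscle alone. A-139 had a Cp of 16.3 in villus (scaled -5.50) and a scaled value of 2.16 cycles in small intestine. A-214 and A-139 thus shared with A-368 a high level in villus that was not found in whole small intestine. A-139 was, however, detected in all 17 libraries and was not high in villus alone. It stood at -3.07 cycles in salivary gland, -2.25 in lacrimal gland, -2.16 in bile duct, -2.14 in mammary gland, -2.04 in bronchial gland, and -1.93 in prostate. In kidney, pancreas, liver, heart, and skeletal muscle it lay below the median of the shared positions.

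**Figure D4:**
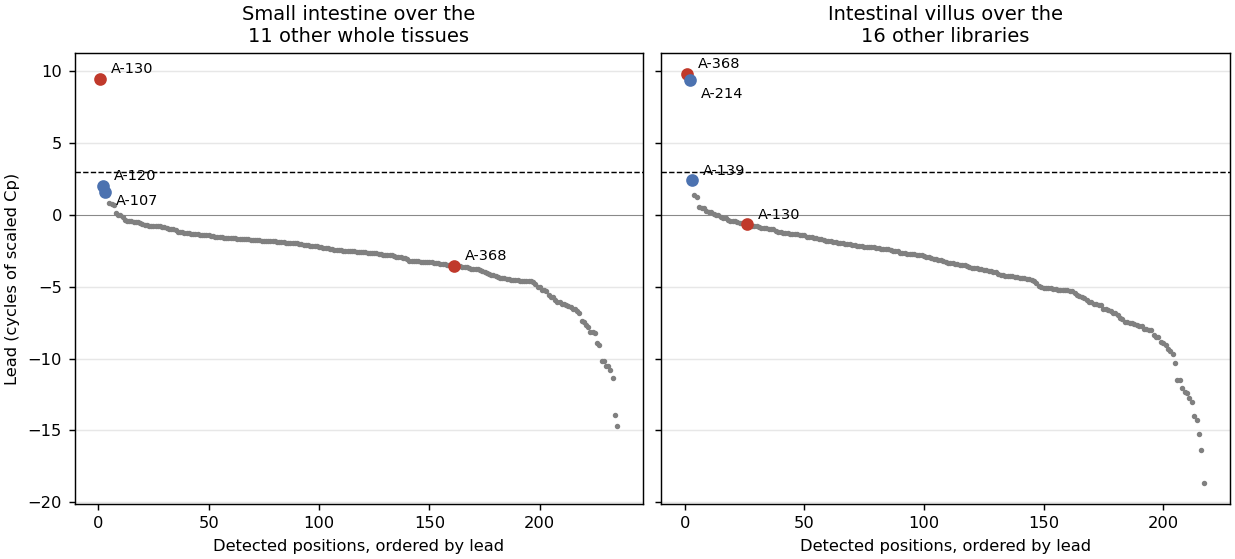
Lead in cycles of scaled Cp (y axis) of small intestine over the 11 other whole tissues (left) and of intestinal villus over the 16 other libraries (right), for the positions detected in that library in order of their lead (x axis); the dashed line marks 3 cycles. A-130 leads in small intestine by 9.51 cycles and stands at -0.64 in the right panel, where small intestine is included, and A-368 leads in villus by 9.84 cycles and stands at -3.54 in the left panel.

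The label of the villus library was not checked against marker miRNAs, since positions were used without names. Without A-130 and A-368, over 378 positions, villus had a Spearman correlation of 0.82 with small intestine. Higher values were found with bronchial gland and mammary gland (both 0.87) and lung (0.83), and the lowest with pancreas (0.58). Small intestine had its highest correlation with lung (0.88) and kidney (0.85). Bile duct (0.840), spleen (0.839), liver (0.833), bronchial gland (0.833), and heart (0.828) also came before villus (0.824). Apart from the chosen positions, the 2 intestinal libraries were therefore not each other's closest match across the card. Bronchial and mammary gland shared the dissection, extraction, and preamplification of villus and small intestine did not. Undetected wells entered these correlations at the limit. Positions of a card are not independent replicates.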

How the data were processed

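The authors measured miRNAs with TaqMan MicroRNA Array cards on an ABI Prism Sequence Detection System and read Cp from the amplification plots in SDS and RQ Manager. Tissue RNA was extracted with TRIzol and that of microdissected samples with the mirVana PARIS kit. The deposited values of card A are Cp per position, not normalized to U6, and the detection limit follows the study's methods. Samples were matched to columns by their labels, and card B, whose positions hold other assays, was not used here. RT-PCR, human, and injury model data were not analysed here.

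Cp was scaled per column as described above, and leads, differences, orders, and correlations were computed on scaled Cp. The lead of a library is the lowest scaled Cp of the others minus its own. Depth of a card is given only as its number of detected positions, and no counting interval applies. No group has replicates, so no test was run. The lead search was tested on simulated data with planted leads and no undetected wells, so leads that rest on undetected wells were not covered. Named positions were A-130 and A-368, the 5 most correlated with each among positions detected in at least 2 libraries, the 3 with the largest lead of each intestinal library among its kind of sample, and those led by both. The members, the threshold of 3 cycles, and the rules were chosen with earlier results of these data known. Other scales, limits of 32 and 40, another value for undetected wells, leads of 1 and 5 cycles, other measures of likeness, and leaving out each library were tried. Python 3.11.15, numpy 2.4.6, pandas 2.3.3, and matplotlib 3.10.9 were used.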

Additional observations from a re-analysis of the deposited data

How the results depend on the processing

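Under 7 other scales, limits, and values for undetected wells, and with each library left out, the villus lead at A-368 and the leads of both intestinal libraries at A-130 kept their direction, and so did the absence of a small intestine lead at A-368. Values were called moved when they changed by more than 0.841 cycles. The difference between villus and small intestine at A-130, -0.64 cycles, reversed to 2.25 when scaled to the mean of the repeated positions, 0.75 with whole tissues and microdissected samples scaled apart, and 4.09 without scaling, and the cause was not tested. At A-368 that difference was 16.3, 14.8, and 18.1 cycles in the same order.

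With the repeated positions as the scale, the villus lead over the other microdissected samples was 15.7 cycles at A-130 and 9.06 at A-368, and the difference from proximal tubule was 15.7 and 17.2 cycles. Without scaling, the small intestine lead at A-130 was 10.7, the villus lead at A-130 18.2, the difference from proximal tubule 18.2 at A-130 and 19.7 at A-368, and that from glomerulus 19.2 and 20.7 cycles. With a limit of 32, which lowers the value of undetected wells, the small intestine lead at A-130 was 7.61, and the villus lead, the difference from proximal tubule, and that from glomerulus were 11.4, 11.4, and 12.4 cycles. With undetected wells at 40 the last was 20.0 cycles.

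With each library left out, the small intestine lead at A-130 ran from 9.36 to 10.5 cycles, the villus lead among microdissected samples from 13.9 to 15.0 at A-130 and from 9.57 to 14.9 at A-368 (the highest without bronchial gland), and the difference between small intestine and kidney at A-368 from 0.48 to 1.01 (the highest without pancreas). Positions led by small intestine rose from 1 to 4 with a lead of 1 cycle. Those led by villus among microdissected samples went from 9 to 25 with a lead of 1 cycle, 4 with 5 cycles, and 19 without scaling. Of the 5 positions most like A-130, 3 were shared with the Spearman choice and 1 with whole tissues alone, and for A-368 these numbers were 1 and 0. No paired analysis was possible because no tissue or compartment has a second library on the card.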
